A study of Mus musculus with 2 samples.

Results

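Genomic imprinting silences 1 parental copy of a gene and leaves the other active, and microRNAs that lie inside imprinted loci are usually imprinted with them. The microRNA genes described here are Mir296, Mir298, Mir335, Mir483 and Mir675, which lie at the imprinted Gnas, Mest, Igf2 and H19 loci of the mouse, outside the large Dlk1-Dio3 cluster. They were chosen by gene name and locus in the GENCODE M21 annotation, by a rule that uses no count, although earlier results of these data were known when the rule was written. They are 5 of the 2202 microRNA genes in the tables. A microRNA is a short RNA cut from a hairpin precursor. It represses messenger RNAs that pair with its seed, which is bases 2 to 8 of the mature strand.

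The RNA came from heart tissue of female mice of the F1 hybrid B6CASTF1/J labelled as 14 days old, and only RNA of under 30 bases was sequenced. The labels conflict on the age, since a description writes the same number as postnatal months, and the age field with days was followed here. There was 1 group of 2 biological replicates with no treatment or mutation and no second condition. The labels of replicate 1 mention 3 females and those of replicate 2 a single female, without saying whether the tissue of replicate 1 was pooled. The counts are not split by parental allele, so they give the counted reads of both copies of each gene in sum. They say nothing of which copy was active. The counts were made on mm10, and whether reads of both copies mapped equally well was not tested.

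Own-strand reads of microRNA genes numbered 5237062 in replicate 1 and 3026501 in replicate 2, out of 12701590 reads of any kind in replicate 1 and 7126319 in replicate 2. Levels are given as counts per 1000000 of those own-strand reads (CPM). Each read is 1 short RNA, so CPM was not divided by the length of the gene. Levels of different genes are compared as reads, and whether their RNAs were captured equally was not measured. The cardiomyocyte markers Mir208a, Mir208b and Mir499 were all detected and had summed levels of 5166 CPM in replicate 1 and 3415 CPM in replicate 2. Markers of red blood cells (Mir451a and Mir144) together had 337 CPM in replicate 1 and 6972 CPM in replicate 2. The endothelial marker Mir126a had 42911 CPM in replicate 1 and 63991 CPM in replicate 2. Mir206 of skeletal muscle had 7.83 CPM in replicate 1 and 20.5 CPM in replicate 2. Mir375 of pancreas had 72.8 CPM in replicate 1 and 11.9 CPM in replicate 2. The other 5 lists had mean sums between 63.2 CPM (Mir122 of liver) and 32106 CPM (Mir143 and Mir145a of smooth muscle). The part of these markers in the levels below was not tested. In RNA of a tissue, fewer cells of a type and less RNA per cell cannot be told apart.

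The mature sequences give the seeds of each microRNA, and they are printed 5′ to 3′ with the seed in capitals (RefSeq, GRCm38.p6). Targets were not searched for. Both arms of each hairpin are given, because the deposited counts are per gene and do not say from which arm a read came.
mmu-miR-335-5p: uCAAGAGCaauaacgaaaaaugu
mmu-miR-335-3p: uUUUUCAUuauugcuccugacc
mmu-miR-298-5p: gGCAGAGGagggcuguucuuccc
mmu-miR-298-3p: gAGGAACUagccuucucucagcuu
mmu-miR-296-5p: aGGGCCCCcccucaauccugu
mmu-miR-296-3p: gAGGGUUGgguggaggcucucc
mmu-miR-483-5p: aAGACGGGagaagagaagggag
mmu-miR-483-3p: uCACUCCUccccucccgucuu
mmu-miR-675-5p: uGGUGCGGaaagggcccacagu
mmu-miR-675-3p: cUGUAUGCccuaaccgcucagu

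None of the 10 seeds occurs in a mature microRNA of any other gene among the 1738 mature entries of the RefSeq table, where 68.0% of entries have a seed found in 1 gene alone. The 5 genes therefore do not belong to a shared seed family, with each other or with another gene of that table. The miR-335 strands were poor in G and C, at 30.4% and 36.4%, and 7 of the 10 sequences lay above the median of 52.2% over all mature entries. A uracil stands first in 4 of the 10, against 41.3% of all entries. The longest stretch common to any pair of the 5 hairpins was 5 to 7 bases.

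No hairpin of the 5 shared a stretch of 20 bases with another microRNA gene. Of the 335 detected genes 22.7% did, and of all 2202 genes 1087 did. This bears on the counts because reads that map to several places were counted for no gene. Copies elsewhere in the genome were not looked for. Among all annotated transcripts, the only other gene to hold a mature sequence of the 5 was H19, which holds both strands of miR-675. Nearly all reads of the 5 genes lay on the own strand. The opposite strand had 2 reads at Mir335 and 1 at Mir675 in replicate 1, and 0 at all 5 in replicate 2.

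The genes sit differently in their loci (mm10 coordinates, identical in GENCODE M21 and RefSeq). Mir335 lies on the plus strand at chr6:30741299-30741396, in introns of Mest, a gene expressed from the paternal copy that encodes a hydrolase-like protein. All 7 Mest transcripts that span it leave it intronic. Mir483 lies on the minus strand at chr7:142654924-142654996, in introns of all 7 spanning transcripts of Igf2, the paternally expressed fetal growth factor gene, and of the overlapping gene model Gm49394. Mir675 lies on the minus strand at chr7:142577064-142577147 and overlaps exon 1 or 2 in 3 of the 4 spanning transcripts of H19, the maternally expressed long noncoding RNA. Mir675 and Mir483 are separated by 77776 bases.

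Mir296 (chr2:174267047-174267125) and Mir298 (chr2:174267504-174267585) are both on the minus strand with 378 bases between them. Neither overlaps another annotated gene. The nearest edge of Nespas, a noncoding RNA antisense to Gnas, lies 14111 bases from Mir296 on the same strand, and Gnas, which encodes a stimulatory G protein subunit, lies 17194 bases away on the other strand. The only other microRNA gene within 100 kb of any of the 5 was Gm27591, with 0 reads in both libraries. A count of 0 leaves room for 0.573 CPM at the depth of replicate 1 and 0.991 CPM at that of replicate 2 (3 reads).

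**Figure D1:**
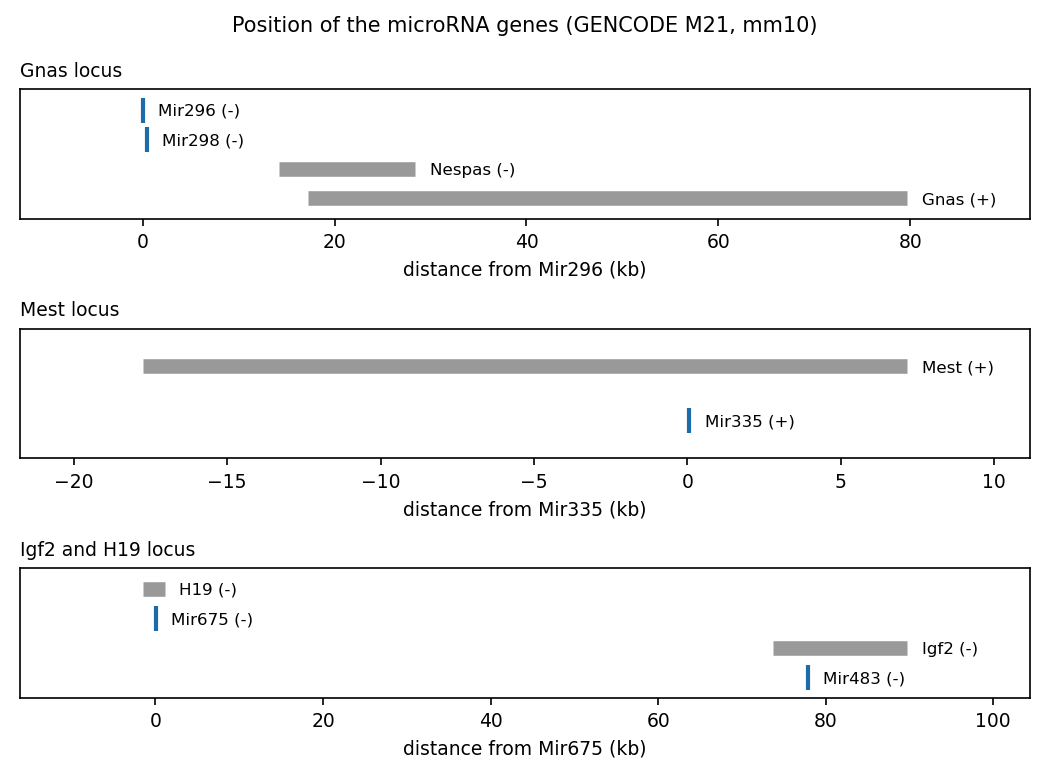
Position of the 5 microRNA genes (blue) and of the annotated genes of their loci (grey), with distance in kb from Mir296, Mir335 or Mir675 on the horizontal axes and the strand in brackets. Mir335, Mir483 and Mir675 lie inside annotated genes, whereas Mir296 and Mir298 lie side by side outside Nespas and Gnas.

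Of the 5 genes, 4 were detected, meaning that they had at least 10 reads in both libraries, against 15.2% of all microRNA genes. Mir335 was highest, followed by Mir298, while Mir675 was close to the limit of these libraries. Together the 5 genes took 0.722% of counted reads in replicate 1 and 0.831% in replicate 2 (mean 0.777% ± 0.0773, SD, n = 2). Each SD comes from just 2 values. Intervals are exact 95% Clopper-Pearson intervals. They and the floors cover counting error only, as amplified copies of 1 molecule cannot be recognised in these reads.

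Mir335, which is best known from human cancer cells as a suppressor of metastasis, had 24100 reads in replicate 1 and 18541 in replicate 2. That is 4602 CPM (interval 4544 to 4660) in replicate 1 and 6126 CPM (6039 to 6215) in replicate 2, or 5364 ± 1078 CPM (SD, n = 2). It stood 31st by level in replicate 1 and 24th in replicate 2, and 26 of all genes had a higher mean. It supplied 63.7% of the reads of the 5 genes in replicate 1 and 73.7% in replicate 2. Its level lay below the summed cardiomyocyte markers in replicate 1 and above them in replicate 2.

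Mir298, the more abundant gene of the Gnas pair, had 10985 reads in replicate 1 and 4701 in replicate 2. It reached 2098 CPM (interval 2059 to 2137) in replicate 1 and 1553 CPM (1509 to 1598) in replicate 2, or 1825 ± 385 CPM (SD, n = 2). It was lower than Mir335 in both libraries, by more than the SD of either gene. Mir296, known in human endothelial cells for a part in vessel growth, had 880 reads in replicate 1 and 1021 in replicate 2. Its levels were 168 CPM (157 to 180) in replicate 1 and 337 CPM (317 to 359) in replicate 2, or 253 ± 120 CPM. Mir296 was the only one of the 5 with more reads in the shallower library.

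Mir483 of the Igf2 introns had 1829 reads in replicate 1 and 888 in replicate 2. These are 349 CPM (interval 333 to 366) in replicate 1 and 293 CPM (274 to 313) in replicate 2, or 321 ± 39.5 CPM (SD, n = 2). The means of Mir483 and Mir296 differed by less than the SD of Mir296, and their order changed between the libraries, with Mir483 higher in replicate 1 and Mir296 higher in replicate 2. These 2 genes therefore cannot be ranked against each other. Every other neighbouring pair in the order of levels kept its order in both libraries.

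Mir675, which is cut from H19 and restrains growth of the mouse placenta, had only 10 reads in replicate 1 and 6 in replicate 2. That is 1.91 CPM (interval 0.916 to 3.51) in replicate 1 and 1.98 CPM (0.728 to 4.32) in replicate 2, or 1.95 ± 0.0516 CPM (SD, n = 2). It missed the limit for detection in replicate 2 alone. Its SD was far smaller than the width of either interval, so the closeness of the values is not a measure of precision. Even so, 82.3% of all microRNA genes had a lower mean, because most had no read. Mir675 overlaps exons of H19 on the same strand. Whether its few reads came from miR-675 or from other fragments of H19 was not tested.

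**Figure D2:**
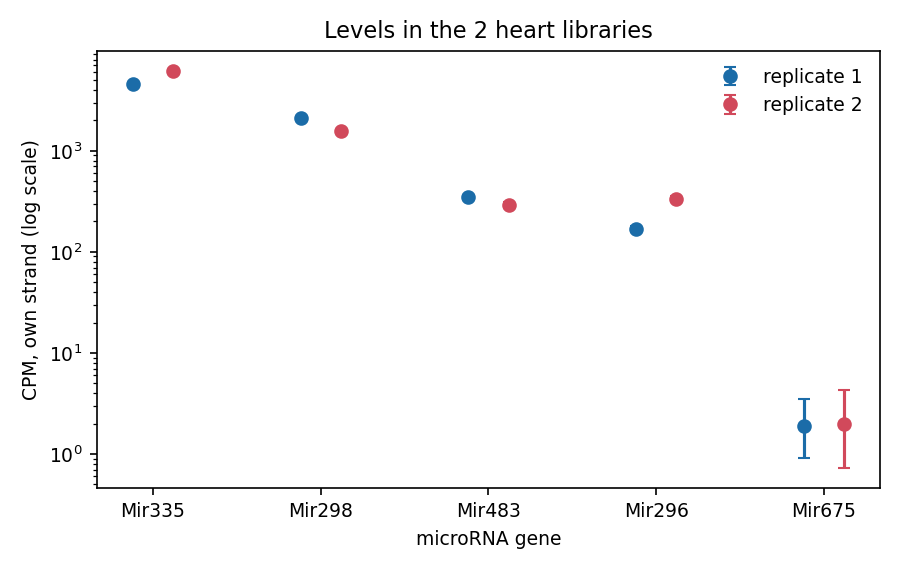
CPM on a log scale for the 5 genes in replicate 1 (blue, left) and replicate 2 (red, right), with bars for exact 95% counting intervals, which are smaller than the points except for Mir675. Mir335 lies between 4602 and 6126 CPM, and Mir675 near 2 CPM.

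Ratios within a library need no scaling between libraries. They are ratios of reads, and their intervals do not cover unequal capture of different microRNAs, so they need not equal ratios of molecules. For each read of Mir483 there were 13.2 reads of Mir335 in replicate 1 (interval 12.6 to 13.8) and 20.9 in replicate 2 (19.5 to 22.4). Mir335 had 2410 reads for each read of Mir675 in replicate 1 (1310 to 5026) and 3090 in replicate 2 (1419 to 8422), intervals that overlap widely. Mir483 and Mir675 lie in the same imprinted domain, within Igf2 and H19, which are expressed from opposite parental copies. From which copy the microRNAs themselves came was not measured. Mir483 outnumbered Mir675 by 183 to 1 in replicate 1 (99.2 to 382) and by 148 to 1 in replicate 2 (67.7 to 404), again without a difference beyond counting error. H19 and Igf2 are strongly expressed before birth and decline afterwards in most mouse tissues, but neither transcript was measured here.

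Mir296 and Mir298, although neighbours on 1 strand, did not keep a fixed ratio. There were 0.0801 reads of Mir296 for each read of Mir298 in replicate 1 (interval 0.0747 to 0.0858) and 0.217 in replicate 2 (0.203 to 0.232). The intervals do not overlap, and the ratio was 2.71-fold lower in replicate 1. To read this against the rest of the data, the same change was computed for all 104 pairs of detected microRNA genes that adjoin on 1 strand within 10000 bases. The median pair changed 1.60-fold, and 14 pairs (13.5%) changed more than Mir296 and Mir298. Among the 58 pairs in which both genes averaged 100 reads or more, 13.8% changed more, and among the 36 of these without a shared stretch of 20 bases, 11.1%. The change at the Gnas pair is thus in the upper part of the range, and not outside it.

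The hairpins of both genes of the Gnas pair are printed to show the neighbours side by side, with the mature arms in capitals.
Mir296: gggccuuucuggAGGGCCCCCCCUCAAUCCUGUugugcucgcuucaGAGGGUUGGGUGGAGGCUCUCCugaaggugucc
Mir298: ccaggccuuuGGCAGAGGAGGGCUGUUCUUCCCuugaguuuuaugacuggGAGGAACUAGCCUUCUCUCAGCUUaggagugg
The hairpin of Mir296 is 79 bases long with 63.3% G and C, and that of Mir298 is 82 bases long with 53.7%. The median over the hairpins of detected genes was 51.1%, and 35 of the 335 detected genes, Mir296 included, had at least the share of Mir296. Over those 335 genes, Pearson's r between hairpin G and C content and the log2 difference between the libraries was 0.122, given as a description across genes. Whether base composition bears on the ratio was not tested.

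**Figure D3:**
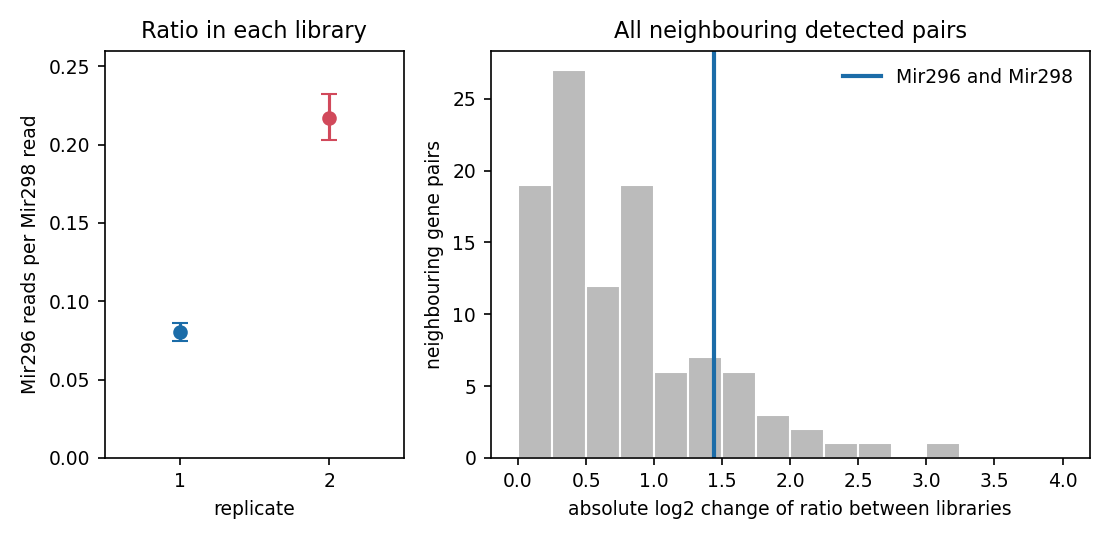
Left, reads of Mir296 per read of Mir298 in replicate 1 (0.0801) and replicate 2 (0.217), with exact 95% counting intervals. Right, the number of neighbouring detected pairs by the absolute log2 change of their ratio between the libraries, with the Gnas pair as a line in the upper part of the distribution.

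The levels of the 5 genes were then compared between the libraries, replicate 1 over replicate 2, by an exact two-sided binomial test after TMM scaling, with Benjamini-Hochberg adjustment over all 430 genes that had at least 10 reads in sum. The test compares these libraries, rests on counting error alone and says nothing of a condition. It called 3 of the 5 genes, against 55.3% of all genes tested, so the share is near the background and is no result about imprinted genes. Mir335 and Mir296 were lower in replicate 1 (27.4% of all genes were called lower) and Mir298 was higher (27.9% were called higher).

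Mir296 showed the only difference of over 2-fold among the 5, against 28.6% of all tested genes. It was 2.20-fold lower in replicate 1 (log2 difference -1.14, counting interval -1.27 to -1.01, adjusted p = 1.1e-64 by the exact binomial test). Of the 226 genes that averaged 100 reads or more, 15.5% differed more. Mir335 was 1.46-fold lower in replicate 1 (log2 -0.55, -0.57 to -0.52), with an unadjusted p at the smallest value kept, 1e-300. Mir298 was 1.23-fold higher in replicate 1 (log2 0.30, 0.25 to 0.35, adjusted p = 1.16e-32 by the exact binomial test). The median difference was 1.23-fold over the 5 genes and 1.44-fold over all genes tested, many of which had few reads. Over the 226 genes that averaged 100 reads or more it was 1.32-fold.

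Mir483 (log2 difference 0.12, counting interval 0.00059 to 0.23) missed the threshold with an adjusted p of 0.0827 by the exact binomial test. It was called higher in replicate 1 with total counts (log2 0.25), with DESeq2 size factors (0.15) and in the unstranded column (0.14). TMM moved all log2 differences by -0.13 relative to total counts, and none of the 5 changed direction. Mir675 had a log2 difference of -0.23 with a counting interval of -1.79 to 1.55, which holds 2-fold differences in either direction. A difference of that size in Mir675 could therefore not be excluded at this depth. When edgeR's exact test was run with the biological coefficient of variation set to 0.1, Mir296 (adjusted p = 1.92e-06) and Mir335 (adjusted p = 0.0322) kept the call, and Mir298 lost it (adjusted p = 0.291), against 28.6% of all genes called. At the coefficient of 0.424 estimated from these same libraries, none of the 5 was called, nor had any an unadjusted p under 0.05, against 0.93% of all genes called.

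**Figure D4:**
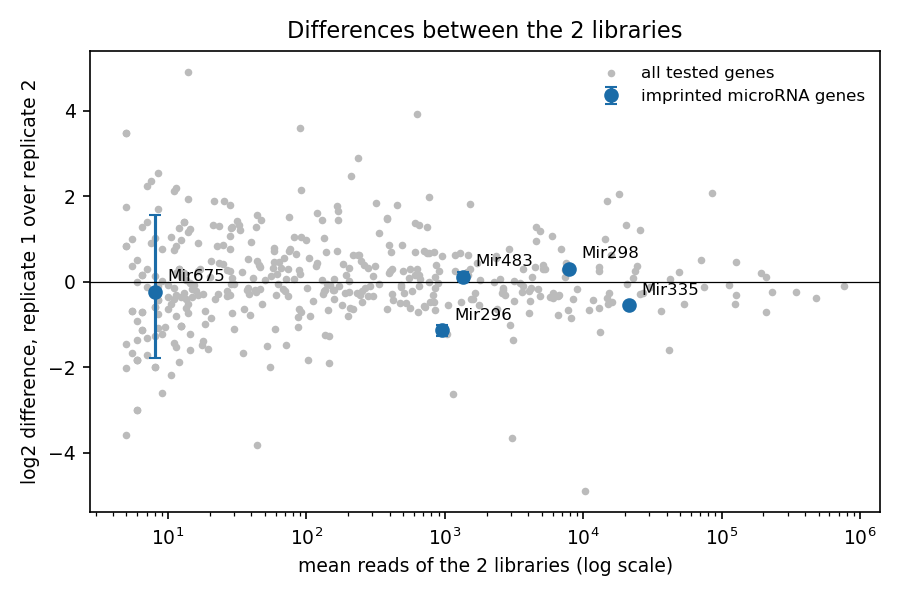
Log2 difference of replicate 1 over replicate 2 after TMM scaling against mean reads on a log scale, for all 430 tested genes (grey) and the 5 imprinted microRNA genes (blue, with 95% counting intervals). Mir296 lies lowest of the 5 at -1.14, and the interval of Mir675 spans zero widely.

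The microRNAs at other imprinted loci give a scale for these levels. The 5 genes had summed levels of 7219 CPM in replicate 1 and 8312 CPM in replicate 2. The 66 genes of the Dlk1-Dio3 region (chromosome 12), of which 46 were detected, had 12707 CPM in replicate 1 and 12959 CPM in replicate 2. No gene of that region had a higher mean than Mir335, and 1 of them, Mir127, had a higher mean than Mir298. Mir127 had 3585 CPM in replicate 1 and 4517 CPM in replicate 2. Mir298 alone had 2098 CPM in replicate 1 and 1553 CPM in replicate 2, against 1258 CPM in replicate 1 and 1427 CPM in replicate 2 for the 119 genes inside Sfmbt2, another imprinted gene. Of those 119 genes, 117 share a stretch of 20 bases with another hairpin, as do 8 of the 66 Dlk1-Dio3 genes and none of the 5 genes, so the Sfmbt2 sum holds for uniquely mapped reads only and can be too low. Undetected genes included, the median of the mean levels was 321 CPM over the 5 genes, 20.5 CPM over the Dlk1-Dio3 genes, and 0 over both the Sfmbt2 genes and all 2202 genes. These are descriptions of lists of unequal size, and no difference between lists was tested.

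The detected genes nearest to each of the 4 detected genes, by distance over log2(CPM + 1) in the 2 libraries, were named as those of most similar level. For Mir335 they were Mir100, Mir93 and Mir744, with distances of 0.365 to 0.443 log2 units. Mir93 had 5933 CPM in replicate 1 and 6613 CPM in replicate 2. For Mir298 they were Mir676, Mir342 and the fibroblast marker Mir214, at 0.111 to 0.159. Mir676 had 1968 CPM in replicate 1 and 1489 CPM in replicate 2.

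For Mir483 the nearest were Mir208b, which lies within the beta myosin heavy chain gene, Mir200c and Mir330, at 0.0914 to 0.163. Mir208b had 329 CPM in replicate 1 and 288 CPM in replicate 2. For Mir296 they were Mirlet7a-2, Mir350 and Mir671, at 0.188 to 0.471. Mirlet7a-2, with 177 CPM in replicate 1 and 380 CPM in replicate 2, shares 20 bases with 2 other hairpins and is uncertain. Mir350 had 176 CPM in replicate 1 and 255 CPM in replicate 2, and Mir671 had 229 CPM in replicate 1 and 303 CPM in replicate 2. The genes were picked for like levels in both libraries, so a shared direction follows from the choice.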

How the data were processed

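MicroRNA sequencing of heart gave 1 count table per library, for 2 biological replicates of 1 group. The deposited values are whole-number read counts per gene, not normalized, made on mm10 with GENCODE M21 per the readme deposited beside them. The names of the aligner, trimmer and counter were not given in the sources used here. There is no header. The values show an unstranded, an own-strand and an opposite-strand column, of which the own-strand one was used. The 4 lines that name no gene were left out of library sizes. They held 58.8% of reads in replicate 1 and 57.5% in replicate 2, of which reads mapping to several places made up 41.1% of all reads in replicate 1 and 39.9% of those in replicate 2.

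CPM, exact 95% Clopper-Pearson intervals, ratios and an exact binomial test (TMM sizes, 0.5 reads added in log2 differences, threshold 0.05) were computed with Python 3.11.15, numpy 2.4.6, scipy 1.17.1, pandas 2.3.3 and matplotlib 3.10.9. R 4.3.3, edgeR 4.0.16 and DESeq2 1.42.0 gave scaling factors and alternative tests. Annotation came from GENCODE M21 and sequences from RefSeq (GRCm38.p6), where all 5 genes matched. In data simulated for 435 genes with counting error only, the test called 72.9% of 48 genes changed 1.5-fold and 69.4% of 49 changed 2-fold. It called 95.8% of 48 genes changed 4-fold and 1.67% of 240 unchanged genes. With a coefficient of variation of 0.1 added, it called 25.4% of 236 unchanged genes. The coefficient estimated from these libraries was larger, at 0.424, and was not simulated, so these shares need not hold for the data.

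The members, lists and tests were chosen with earlier results of these data known. Named are the 5 genes, microRNA genes within 100 kb, detected genes sharing a seed (none), the 3 detected genes nearest in level to each detected gene, and the highest gene, Mir378a (184074 ± 2148 CPM, SD, n = 2). Gm27591 comes from the 100 kb rule, and the marker genes come from fixed lists. Mir127 was named as the gene with the highest mean in the Dlk1-Dio3 list, so it was picked by its counts. The comparison with neighbouring pairs was added after the ratio had been seen. Replicates are separate samples per the labels, and all p-values compare these samples only. Those of the exact binomial test rest on counting error alone. Those of edgeR's exact test also allow for a biological coefficient of variation, which was either set to a fixed value or estimated from these same libraries.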

Additional observations from a re-analysis of the deposited data

How the results depend on the processing

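The summed level of the 5 genes was 7765 CPM and kept to within its SD with TMM sizes and DESeq2 size factors, and lay between 7219 and 8312 CPM when either replicate was left out. It was 3253 per 1000000 with all reads of the table as denominator, 9516 with Mir378a left out of the denominator and 10635 in the unstranded column, where reads ambiguous between genes made up 10.7% of the table of replicate 1 and 11.9% of that of replicate 2, against 0 on the own strand. The number of detected genes was 4 or 5 under every read minimum (1, 5 and 20), in the unstranded column and without either replicate. The binomial test called 238 genes in all and 3 of the 5. The count over all genes was 123 when edgeR's exact test had the biological coefficient of variation set to 0.1. At the estimated coefficient of 0.424 it was 4 of 430 genes, with 24 at an unadjusted p under 0.05, and 0 of the 5 with none of these at an unadjusted p under 0.05. That coefficient is estimated from the same 2 libraries that are compared. Under all alternatives run, none of the 5 log2 differences changed sign. Mir296 ranged from -1.14 to -1.01, Mir335 from -0.55 to -0.41, Mir298 from 0.30 to 0.43, Mir483 from 0.11 to 0.25 and Mir675 from -0.60 to -0.08. Mir483 gained a call with total counts, DESeq2 size factors and the unstranded column. The ratios moved within their counting intervals in the unstranded column. The depth limits Mir675 most, where 16 reads in all carry the result. No paired analysis was possible because there is 1 group.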

Other observations

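A pair of further microRNA groups reported at imprinted loci in mice gave contrasting values. Mir184 was detected, with 434 reads (82.9 CPM) in replicate 1 and 239 reads (79.0 CPM) in replicate 2. The 13 Mir344 genes had 1 read in all in replicate 1 and 1 in replicate 2, and none was detected. Of these 13 genes, 12 share 20 bases with another hairpin, so their reads can be lost to multiple mapping, while Mir184 shares none.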
